A study of Mus musculus with 4 samples.

Results

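Accessible regions that crowd together in the genome of mouse double-positive thymocytes were examined here. The autosomes, chromosomes 1 to 19, were divided into fixed bins of 50 kb, and each accessible region of the wild-type (WT) list was placed in the bin of its summit, the base with the most reads. Bins with 4 or more WT summits are called dense, and the WT regions in them are the members. There were 204 dense bins among 10337 bins with a WT summit, and they held 911 members of 14792 WT regions on these chromosomes (15215 in the whole list). The members were chosen by the number of WT summits in their bin, so their number in WT is a description. The knockout (KO) list was not used to choose them.

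ATAC-seq, a method in which a transposase inserts sequencing adapters into open DNA, was run on 50000 sorted CD4+CD8+ thymocytes per library. WT mice carried loxP sites in both copies of Chaf1b and no Cre, and KO mice carried the same alleles with Cd4-cre, all on the C57BL/6 background. Chaf1b encodes the p60 subunit of chromatin assembly factor 1, and the study asked what it does in early iNKT cell development. The 4 libraries, 2 per group, were pooled by the authors into 1 list per group, so no value per replicate, no test between groups and no p-value could be given. Cd4-cre is active from the stage at which thymocytes begin to express CD4, and the lists do not measure how much Chaf1b was lost. An effect of Cre itself cannot be told apart from the loss of Chaf1b, because the controls had no Cre. No animal age was given in these sources.

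Chromatin assembly factor 1 places histones H3 and H4 on newly copied DNA, next to the replication clamp PCNA. Open regions cluster where several promoters lie close together, where a gene carries many enhancers, and in tandem arrays of repeated genes. In thymocytes the antigen receptor loci and genes such as Rag1, Rag2 and the Cd8 locus are known for many nearby regulatory elements. In tandem arrays the copies can be nearly identical, so short reads from them cannot be assigned to a copy with certainty.

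Sequences from 250 bases before to 50 bases after the annotated start, called start windows, are shown for 6 genes whose dense bins are described below. Rag1 and Rag2 encode the recombinase of the antigen receptor genes, Tap1 and B2m serve antigen presentation on MHC class I, Pcna encodes the replication clamp, and H2ac8 encodes a histone H2A. They are RefSeq sequences of GRCm38.p6, read 5′ to 3′ in the direction of the gene. Capitals mark matches, on either strand, to 6 motifs: the GC box GGGCGG, the CCAAT box CCAAT, the ETS motif CCGGAAG, the E box CAGCTG, the RUNX motif TGTGGT and the TATA box TATAAA. Members overlapped all 6 windows. The Rag1, Rag2 and Tap1 members had no KO region, and the Pcna, B2m and H2ac8 members had one.
Rag1 (chr2:101649483-101649782, minus strand): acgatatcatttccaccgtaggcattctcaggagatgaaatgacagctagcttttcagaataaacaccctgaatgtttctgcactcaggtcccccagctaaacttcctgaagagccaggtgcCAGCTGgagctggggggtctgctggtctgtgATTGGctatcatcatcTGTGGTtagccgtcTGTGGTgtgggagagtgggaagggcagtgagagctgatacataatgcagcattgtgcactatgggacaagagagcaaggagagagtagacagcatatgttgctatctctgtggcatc
Rag2 (chr2:101624462-101624761, plus strand): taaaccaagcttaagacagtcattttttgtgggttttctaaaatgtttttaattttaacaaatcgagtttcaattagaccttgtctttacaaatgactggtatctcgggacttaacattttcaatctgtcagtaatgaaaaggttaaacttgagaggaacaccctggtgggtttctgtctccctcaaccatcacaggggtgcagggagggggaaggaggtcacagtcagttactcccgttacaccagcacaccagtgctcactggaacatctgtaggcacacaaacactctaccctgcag
Tap1 (chr17:34187306-34187605, plus strand): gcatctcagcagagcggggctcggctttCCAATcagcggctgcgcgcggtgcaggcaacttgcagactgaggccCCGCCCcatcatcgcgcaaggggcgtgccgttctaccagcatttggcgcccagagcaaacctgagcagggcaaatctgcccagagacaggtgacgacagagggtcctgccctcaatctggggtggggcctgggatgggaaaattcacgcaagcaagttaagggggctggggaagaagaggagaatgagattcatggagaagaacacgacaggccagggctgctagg
Pcna (chr2:132253131-132253430, minus strand): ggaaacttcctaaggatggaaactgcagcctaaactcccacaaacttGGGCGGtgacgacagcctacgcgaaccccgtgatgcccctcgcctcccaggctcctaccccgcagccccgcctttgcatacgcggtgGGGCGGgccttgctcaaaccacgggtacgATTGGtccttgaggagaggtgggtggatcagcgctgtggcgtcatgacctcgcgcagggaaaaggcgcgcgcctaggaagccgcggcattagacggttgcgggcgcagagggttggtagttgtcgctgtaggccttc
B2m (chr2:122147437-122147736, plus strand): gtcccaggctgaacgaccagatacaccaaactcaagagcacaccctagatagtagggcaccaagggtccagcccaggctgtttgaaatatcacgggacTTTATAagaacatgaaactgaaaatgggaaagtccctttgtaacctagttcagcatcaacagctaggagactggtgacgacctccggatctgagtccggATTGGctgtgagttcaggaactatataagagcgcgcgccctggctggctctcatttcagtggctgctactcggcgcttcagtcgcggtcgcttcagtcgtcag
H2ac8 (chr13:23571171-23571470, minus strand): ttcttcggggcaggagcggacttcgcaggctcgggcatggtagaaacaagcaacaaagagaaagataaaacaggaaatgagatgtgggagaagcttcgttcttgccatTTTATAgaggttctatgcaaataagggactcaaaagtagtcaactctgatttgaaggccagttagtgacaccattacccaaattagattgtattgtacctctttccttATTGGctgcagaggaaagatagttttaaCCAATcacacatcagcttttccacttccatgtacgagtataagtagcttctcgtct

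The Rag1 window held 1 E box, 2 RUNX matches and 1 CCAAT box, and the Rag2 window held none of the 6 motifs. In the Pcna window there were 2 GC boxes and 1 CCAAT box, with 26 CpG dinucleotides in 300 bases against 3 in the Rag1 window. H2ac8 is read away from H2bc8, a histone H2B gene whose start lies in the same member. The H2ac8 window held 2 CCAAT boxes and 1 TATA box, the latter read on the strand opposite to H2ac8.

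Most dense bins sat at the threshold. Exactly 4 WT summits were counted in 159 bins, 5 in 33, 6 in 7, 8 in 1, 12 in 2, 16 in 1 and 20 in 1. Just outside the rule lay 663 bins with 3 WT summits. Those bins held a median of 1 KO summit and 0.426 KO summits per WT summit, against a median of 2 and a ratio of 0.420 in the 159 bins of 4. The dense bins were 1.97% of bins with a WT summit and contained 6.16% of WT regions. Chromosome 8 had the highest share of its WT regions in dense bins (88 of 805, 10.9%) and chromosome 5 the lowest (26 of 850, 3.06%). Of the 88, 32 lay in the 5S rRNA array, and without it the share was 56 of 773 (7.24%). Chromosome 10 had 9.85% and chromosome 9 had 8.94%. The chromosome 9 share still holds 20 members of 1 bin with a median local background of 80.7 times that of the genome. Only the 5S array was left out, so these shares do not rank the chromosomes.

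The KO list held 423 summits in the 204 dense bins, 0.464 KO summits per WT summit, against 0.489 in bins of 1 to 3 WT summits. The threshold was set on WT counts, so this ratio is in part fixed by the choice. Of the dense bins, 190 had fewer KO than WT summits, 30 had no KO summit (14.7%), and 14 had as many or more. Only 23 of the 204 (11.3%, 95% exact binomial interval 7.28 to 16.4) also reached 4 KO summits. The reverse share was higher, since 23 of the 25 bins that were dense in the KO list were dense in WT. The other 2 held 3 WT and 4 KO summits each, at Il12rb2, a chain of the interleukin 12 receptor, and at Inpp4b, an inositol phosphatase. The KO list was shorter (7422 regions on these chromosomes) and its depth was 0.752 times that of WT. When the WT list was shortened to the length of the KO list by its strongest −log10 q, it had 23 dense bins. Of these, 10 were also among the 25 dense bins of the KO list, 43.5% of the former and 40% of the latter.

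**Figure D1:**
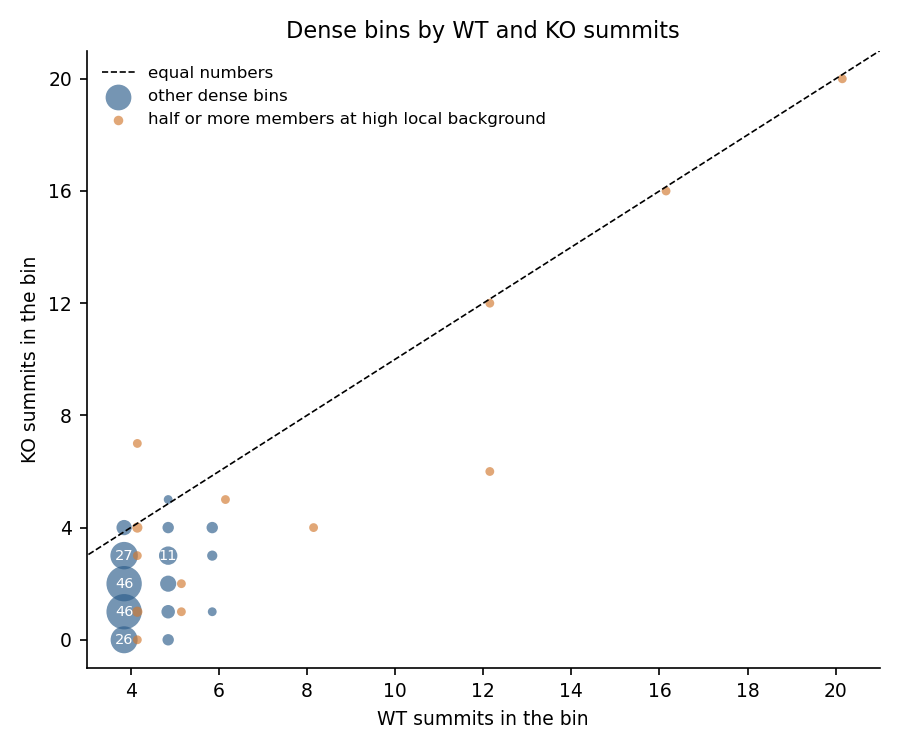
Dense bins by their number of WT summits (x axis) and KO summits (y axis). The area of a point grows with the number of bins, printed where it is 10 or more, and the dashed line marks equal numbers. Most bins lie at 4 WT summits and 0 to 3 KO summits, and orange points, bins in which at least every other member stood over more than 4 times the genome's background, reach 20 summits close to the line.

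A WT region is called shared where a KO region overlapped it by at least 1 bp. Of the 911 members, 405 were shared, 44.5% (95% exact binomial interval 41.2 to 47.8), against 46.1 percent of all WT regions on chromosomes 1 to 19. The other 13881 WT regions were shared in 46.2% of cases (45.4 to 47.0). The difference of −1.73 percentage points had an interval of −5.03 to 1.62, so at this number of regions no difference from the other regions was detectable. With 100 kb bins the difference was −4.65 points (−6.55 to −2.74), and with 25 kb bins it was 11.3 (4.20 to 18.1). Counting intervals cover counting error only. Absence from the KO list means that no region passed the authors' threshold there, and is no measure of closed chromatin.

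The share of shared regions moved with the number of summits in the bin. It was 48.8% in bins with 1 WT summit, 44.7% with 2, 40.6% with 3 and 39.6% with 4. It was 44.8% with 5, 54.8% with 6 and 86.7% in the 4 bins with 12 or more. Regions over a local background above 4 times that of the genome made up 10.6% of members and 0.526% of the other WT regions. Of these members 72 of 97 were shared (74.2%), against 333 of the remaining 814 (40.9%, 37.5 to 44.4). The other WT regions without such a background were shared in 46.0% of cases, which put the members at −5.09 percentage points from them (interval −8.52 to −1.58).

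At equal WT fold enrichment the gap had the opposite sign. Fold enrichment is the authors' value at the summit, reads over local background, and its median was 5.92 in members and 6.58 in the other WT regions. WT regions were split by fold into 10 groups of equal size. Among regions without high local background, the weakest group was rarely shared (members 13 of 115, others 123 of 1288). The strongest was shared nearly always (members 38 of 38, others 1372 of 1415). The 97 members over high local background had a median fold of 3.65, and 72 of them were shared. All regions were then included, and the other WT regions were weighted to the members' spread over the 10 groups. So weighted, 35.9% of the others were shared, 8.52 points less than the members. Without high local background the weighted gap was 3.12 points in the same direction. Weighted by reads at the summit in place of fold, the gap was −7.19 points. Members lay over a higher local background (median 1.59 against 1.34 times that of the genome), so at equal fold they held more reads. Median background rose with the count that chose the members, from 1.28 in bins of 1 WT summit to 1.49 in bins of 4. Median fold fell from 6.80 to 6.01 between the same bins. Background and fold are therefore not independent of the rule. The sign of the difference depended on which measure of height was held equal.

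**Figure D2:**
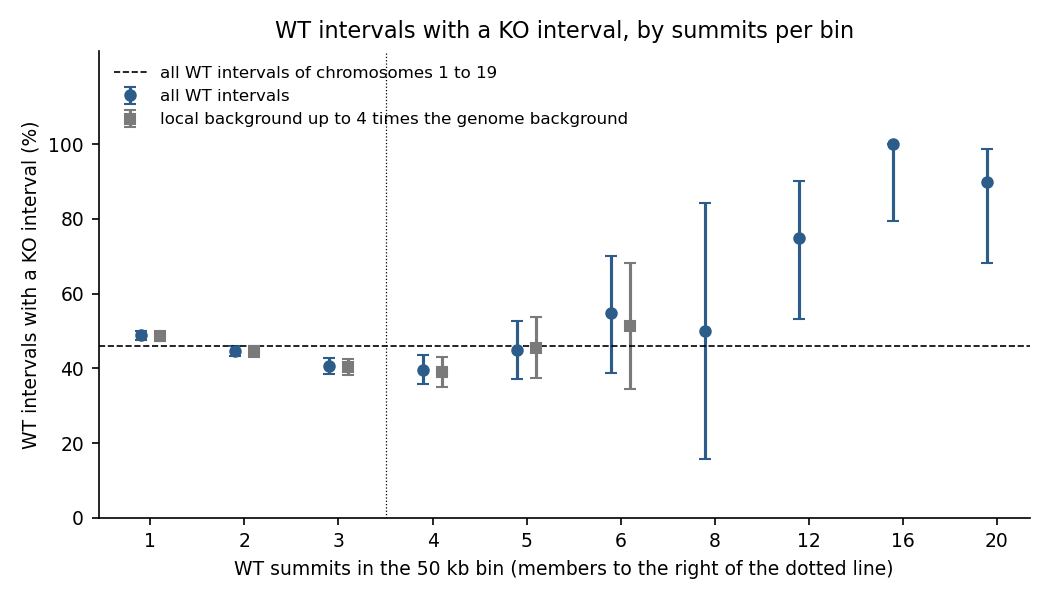
Share of WT regions with an overlapping KO region (y axis, percent) by the number of WT summits in the bin (x axis), with 95% exact binomial intervals. Blue points are all WT regions and grey squares those with a local background up to 4 times the genome background; the dashed line is the 46.1 percent of all WT regions. Shares go from 48.8% at 1 summit to 39.6% at 4, and the bins of 12, 16 and 20 summits lie at 75%, 100% and 90%.

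KO regions without a WT counterpart were few in the dense bins. There were 18 among 423 KO regions (4.26%, 2.54 to 6.64), against 7.45 percent of KO regions on all of these chromosomes. The bins were chosen for holding many WT regions, so this low share is in part fixed by the choice. Among the 18, 1 lay in the Irf4 bin, where a KO region with 14 reads at the summit stood beside 4 WT members. Irf4 encodes a transcription factor of lymphocyte activation, and its bin is named here after its values were seen.

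By position, 457 of the 911 members (50.2%, 46.9 to 53.5) lay within 1000 bp of an annotated gene end, 5′ or 3′, 282 elsewhere in a gene body and 172 between genes. The other WT regions were at gene ends in 53.1%. Start windows were touched by 245 members (26.9%, 24.0 to 29.9) and by 38.6% of the other WT regions. No start windows were available for chromosome 18, so its 468 WT regions, 24 of them members, counted as touching none. Members were narrower, with a median width of 274 bp against 310 bp, and 2.31% against 4.46% were 700 bp or wider. Dense bins overlapped a median of 2 coding genes, as did bins with 2 or with 3 WT summits, against 1 in bins with a single WT summit. Summits that were neighbours in a dense bin lay a median of 7092 bp apart, and 115 of the 707 pairs were under 1000 bp apart. Both members were shared in 30 of those close pairs, 1 in 46 and none in 39.

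The share varied with position. Members at gene ends were shared in 233 of 457 cases (51.0%), beside 54 percent of all WT gene end regions. Members in gene bodies were shared in 97 of 282 (34.4%), beside 37.1 percent of all. Members between genes were shared in 75 of 172 (43.6%), beside 37.5 percent, and in 49 of 138 (35.5%) without high local background. Members at a start window were shared in 133 of 245 cases (54.3%, 47.8 to 60.6) and the rest in 272 of 666 (40.8%, 37.1 to 44.7). That rest includes all 24 members of chromosome 18, which had no start windows. Among members touching start windows on both strands, 10 of 29 were shared (34.5%, 17.9 to 54.3), against 619 of 911 such regions elsewhere (67.9%). Those 29 members had a median fold of 5.58 against 7.85, and at the members' folds 38.9% of the others were shared.

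The 204 dense bins were sorted by what they hold. High local background was found on at least every other member in 15 bins (112 members), antigen receptor segments in 4 (17 members) and histone genes in 3 (13 members). All members lay inside 1 coding gene, with no other coding gene in the bin, in 22 bins (91 members). No coding gene was present in 14 bins (62 members), and 146 bins with coding genes (616 members) remained. The share with a KO region was 71.4% in the first kind, 52.9% at antigen receptor segments, 53.8% at histone genes, 40.3% without coding genes and 41.9% in the remaining bins. Bins inside 1 coding gene had the lowest share, 26 of 91 (28.6%, 19.6 to 39.0). That interval holds the 37.1 percent of all WT gene body regions. Outside the high background bins, the 73 bins in which 2 or more members touched a start window had 140 of 310 members shared (45.2%, 39.5 to 50.9). In the 65 bins with no member at a start, 105 of 275 were shared (38.2%, 32.4 to 44.2). The 65 include all 6 dense bins of chromosome 18, where no start windows were available and 7 of 24 members were shared.

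Genes of the T cell lineage are taken first, by their role in the double-positive stage. Accessible regions were counted for 57 T lineage genes: 29 carried one in WT within 1000 bp of a gene end and 5 overlapped 4 dense bins. None of the 8 B cell, 7 myeloid, 6 erythroid, 5 natural killer and 7 stromal or epithelial markers overlapped a dense bin. At their gene ends, WT regions were found for 1 of the 8 B cell and 2 of the 5 natural killer markers and for none of the other 3 lists. The share of all genes that overlap a dense bin was not worked out. Counts of listed genes in dense bins, here and below, therefore show neither an excess nor a lack.

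The recombinase genes lay together in a dense bin (chr2:101600001-101650000, mm10) with 4 WT members and 1 KO region. At the Rag1 start the WT list had a member with 25 reads at the summit and a fold of 6.57, and at the Rag2 start one with 22 reads and a fold of 7.19. A further member at the other end of Rag1 had 15 reads. None of these 3 overlapped a KO region. The shared member lay inside the neighbouring gene Iftap, with 28 WT reads and 25 KO reads. Its fold was 12.2 in WT and 12.7 in KO, so the region with the highest fold in the bin was in both lists and the 3 at the recombinase genes were in the WT list alone.

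Cd8b1, which encodes the beta chain of the CD8 coreceptor, overlapped a bin (chr6:71300001-71350000) with 4 WT members and 1 KO region. The shared member, at an end of Cd8b1, had 14 WT and 12 KO reads. The other 3 had 21, 13 and 16 WT reads, and 2 of them lay between genes. Here the WT member with the most reads was not the shared one.

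Egr2, a transcription factor induced by T cell receptor signals, lay in a bin with 4 WT members and 3 KO summits (chr10:67500001-67550000). The member over its start had 28 WT and 27 KO reads, with a fold of 6.09 and 7.37. A member at an end of Ado, a thiol dioxygenase gene, had 17 WT and 12 KO reads. The other 2 members had no KO region, with 24 and 17 WT reads.

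Tox, a nuclear factor needed for CD4 lineage cells, held 4 members inside the gene body (chr4:6900001-6950000) and no KO region. Their reads were 20, 19, 22 and 11 and their folds 4.90 to 5.96. Of the 3 members with the most reads, all lay within 3 kb of each other.

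Itpkb, which encodes a kinase of inositol trisphosphate that acts in thymocyte selection, lay in a bin (chr1:180350001-180400000) with 6 WT members, all in the gene body, and 1 KO region. Reads in WT were 23, 24, 21, 24, 18 and 15, and the shared member was the third of these, with 15 KO reads. At 537 bp it was the widest of the 6. Trps1, a GATA-type zinc finger gene, held 5 members and no KO region, with 12 to 17 reads. Pakap, which encodes an A-kinase anchoring fusion protein, held 4 members with 9 to 28 reads and no KO region.

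Further signalling genes lay in bins that the rule names. Cd247, the zeta chain of the T cell receptor complex, lay in 1 of a pair of adjacent dense bins. Its start member had 24 WT and 12 KO reads, and a member at another annotated end of the gene had 15 WT reads and no KO region. In the neighbouring Rcsd1 bin 1 of 5 members was shared. Tnfrsf8, which encodes CD30, had 6 WT members and 3 KO regions. Its start member had 33 WT and 21 KO reads. A member between genes had 23 reads in both lists, and the 3 members without a KO region had 17, 22 and 18 WT reads.

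Chosen after their values were seen, the bins of Ccnd3, Gfi1, Tespa1 and Jak1 gave the following. Ccnd3, a D-type cyclin of proliferating thymocytes, had 5 members and 3 KO regions. The 3 shared members, inside the gene, had 20, 29 and 20 WT reads against 11, 17 and 11 KO reads, and the start members of Ccnd3 and of its neighbour Taf8 were not shared. Gfi1, a zinc finger repressor, had 5 members, 3 shared. Tespa1, a T cell receptor signalling protein, had 4 members and 2 shared, 1 of them with 59 WT and 34 KO reads. Jak1, the cytokine receptor kinase, had a dense bin with 1 of 4 members shared and another with 0 of 4, the latter including its start (23 WT reads).

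**Figure D3:**
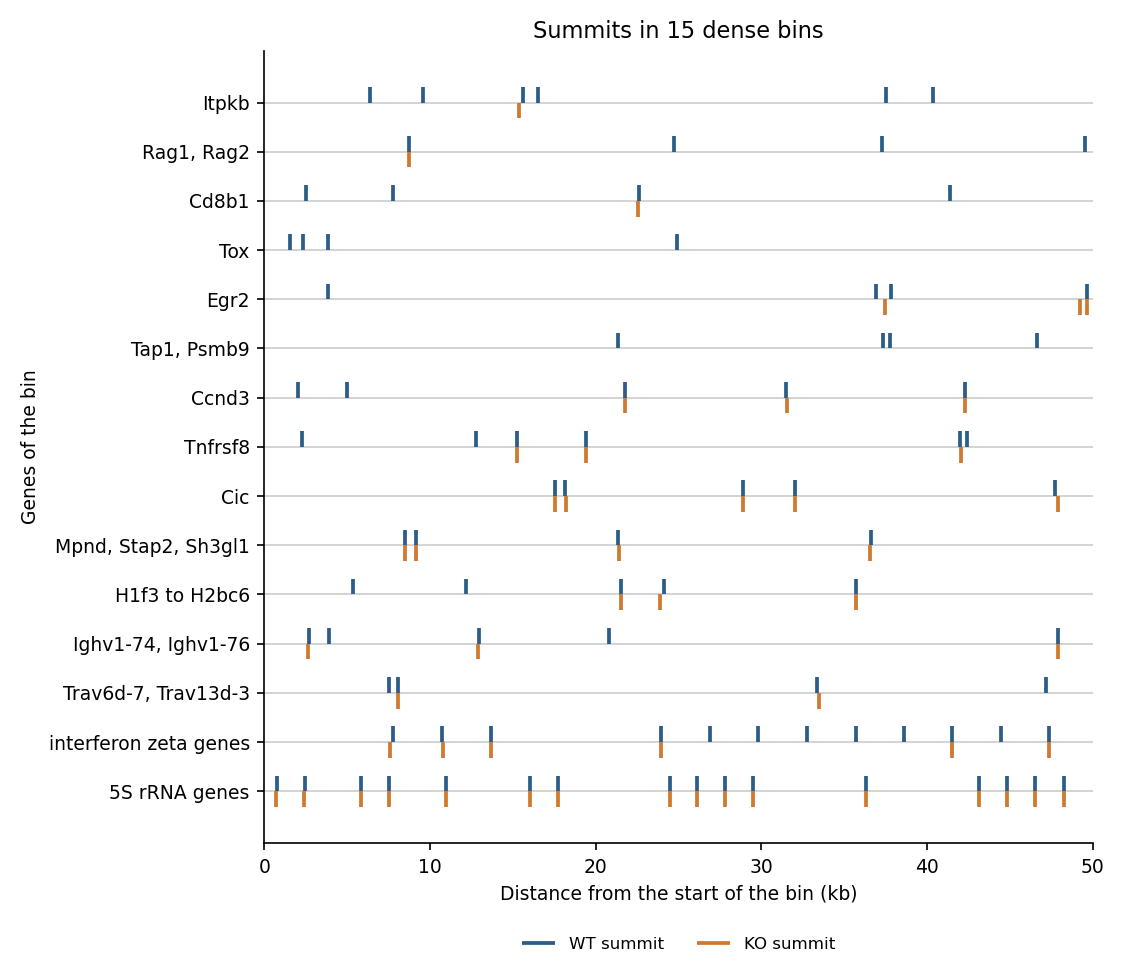
Positions of WT summits (blue, above the line) and KO summits (orange, below) in 15 dense bins, as distance in kb from the start of the bin. The Tox and Tap1 bins have no KO summit, the Rag1, Cd8b1 and Itpkb bins have 1, and the Cic bin has 5 WT and 5 KO summits. The 5S rRNA bin has 16 of each, with neighbouring WT summits 1662 to 6865 bp apart.

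Antigen presentation genes form the next group. Of 54 MHC and associated genes listed, 11 carried a WT region within 1000 bp of an end and 5 overlapped a single dense bin (chr17:34150001-34200000). These were H2-DMb1 and H2-DMb2, subunits that load class II molecules, Psmb8 and Psmb9, subunits of the immunoproteasome, and Tap1, a peptide transporter. The bin held 4 members and no KO region. On either side of the common start region of Psmb9 and Tap1 lay a member with 16 reads (fold 5.52) and one with 13 (fold 4.58). A member at the other end of Tap1 had 19 reads and one between genes had 14, so 3 of the 4 lay under the median of all WT regions, 18 reads. B2m, which encodes the light chain of class I molecules and lies on another chromosome, was in a bin of 4 members with 2 shared. Its start member had 26 WT and 19 KO reads, and a neighbour 221 bp wide had 18 WT reads and no KO region. The B2m bin was named after its values were seen.

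Histone genes, whose products chromatin assembly factors handle, filled 3 dense bins with 13 members. Of 79 histone genes listed, 47 carried a WT region within 1000 bp of an end, and 21 overlapped these bins. In the largest (chr13:23550001-23600000) 5 members lay at histone genes and 3 were shared. H2ac8 and H2bc8 had 1 member in common, with 22 WT and 17 KO reads, and H2ac7 and H2bc7 one with 21 and 13. H2bc6 had 30 WT and 20 KO reads, the highest of the 3 bins. The H1f3 member, at a linker histone gene, had 12 WT reads and the H3c6 member 14, and neither was shared. So the 3 members with the most reads were the 3 shared ones.

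The bin of H1f2, another linker histone gene, and H2bc3 had 4 members and 1 KO region. The shared member was at Hfe, an iron regulation gene, with 9 WT and 11 KO reads. The 3 members at histone genes had 14, 16 and 15 WT reads and no KO region. On chromosome 3, the H2ac18 to H2ac21 bin had 4 members and 2 KO regions, and 3 members were shared because 1 KO region spanned the 2 at H2ac18. H2ac18 and H2ac19 are near-identical copies, so reads could not be assigned to either with certainty.

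Replication and chromatin genes were inspected after their values were seen. Pcna lay in a bin with Cds2, a lipid synthesis gene, with 4 members and 3 shared. The member at the Pcna start had 40 WT and 22 KO reads, and the member beside it, within 1000 bp, had 35 and 18. Chaf1a, which encodes the partner subunit of Chaf1b, lay at the edge of a bin whose 4 members were all shared. Those members were at Stap2, Mpnd and Sh3gl1 and not at Chaf1a itself. Their WT reads were 33, 32, 30 and 14 and their KO reads 19, 30, 15 and 13. Ctcf, a boundary factor, had a start member with 10 WT and 19 KO reads, the 1 shared member of 4 in its bin.

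Antigen receptor segments overlapped 4 dense bins, 3 in the heavy chain locus Igh and 1 in the T cell receptor alpha locus. Heavy chain variable segments are not joined to completion in T cells, whereas the alpha locus is rearranged at the double-positive stage. Of the 17 members, 9 were shared. The Ighv1-82 member had 39 WT and 21 KO reads, and the Ighv1-74 member 25 and 22. In the Ighv1-64 bin a member with 48 WT and 23 KO reads lay near a predicted gene, and the members near Ighv1-64 and Ighv1-65, with 13 and 10 WT reads, were not shared. In the alpha locus (chr14:53000001-53050000) the Trav13d-3 member had 20 WT and 17 KO reads. The Trav6d-7 segment carried a pair of members, of which the one with 24 WT reads had 11 KO reads and the one with 17 was not shared. These segments belong to families of similar copies, so reads may have been split between copies.

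Zinc finger genes of the Zfp series, 419 in number, gave 7 genes in 7 dense bins. Zfp605, with Chfr and Gtpbp6, had 4 of 5 members shared, and its own start member had 34 WT and 18 KO reads. The Zfp740 bin had 2 of 4 members shared and the Zfp526 bin 2 of 5. The Zfp846 bin had 1 of 4, as did a bin of Zfp771. Zfp319 and Zfp553 lay in bins with 0 of 4 members shared. Of all WT regions, 46.1 percent were shared. Members had 11 to 23 reads in the Zfp319 bin and 12 to 15 in the Zfp553 bin.

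Of the 30 bins without a KO summit, those with the highest summed WT fold are named. The first, on chromosome 10, had no coding gene. Next was the bin of Esyt1, an endoplasmic reticulum tether, Zc3h10 and the ribosomal gene Rpl41, with 5 members of 14 to 20 reads. The bin of Gon7, Ubr7 and Btbd7 had 4 members of 8 to 18 reads. A bin on chromosome 18 with Hdac3, a histone deacetylase, Rell2, Fchsd1 and Arap3 had 4 members of 13 to 25 reads. These bins were chosen for having no KO summit, so their lack of KO regions is no finding.

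The bins with the most WT summits outside repeats had 6. The bin of Rab3a, Mpv17l2, Pik3r2 and Mast3, with genes for a vesicle GTPase, a mitochondrial protein, a kinase regulator and a kinase, had 3 of 6 members shared. The Rab3a start had 25 WT and 13 KO reads, and the Pik3r2 start, with 11 WT reads, had no KO region. Cisd2 and Ube2d3, genes for an iron-sulfur protein and a ubiquitin-conjugating enzyme, had 4 of 6 shared. There the Ube2d3 start had 37 WT and 19 KO reads and the Cisd2 start 17 and 18. Cic, a transcriptional repressor, had 5 of 5 members shared, with WT reads of 32, 50, 33, 39 and 19 and KO reads of 25, 33, 20, 18 and 11. The adjacent bin with Dedd2, Zfp526 and Gsk3a had 2 of 5 shared, the 2 being the members with the most WT reads (34 and 30).

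Adjacent dense bins formed 9 runs covering 19 bins, the longest of 3. The run from Rassf1 and the hyaluronidase genes to the G protein gene Gnai2 went from 3 of 5 members shared to 0 of 5 in the neighbouring bin. The 5 members of the Gnai2 bin had 11 to 18 reads, and the Ifrd2 member in the first bin had 40 WT and 22 KO reads.

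The longest run was the 5S ribosomal RNA array of chromosome 8, whose annotated copies span chr8:123538784-123623745. 5S rRNA is a component of the large ribosomal subunit and is transcribed by RNA polymerase III. Its 3 bins held 32 WT members and 32 KO regions. Every summit in both lists lay inside an annotated copy, and the same 32 of 51 copies had a summit in WT and in KO. Of 32 copies annotated at 121 bp, 31 carried a summit, against 1 of 19 copies of other lengths (109, 111 or 119 bp). Copies started a median of 1698 bp apart. Reads at the summit were 34 to 69 in WT (median 53.5) and 34 to 59 in KO (median 48.5). These counts were examined because the bins stood out, and with near-identical copies a read may belong to any of them.

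**Figure D4:**
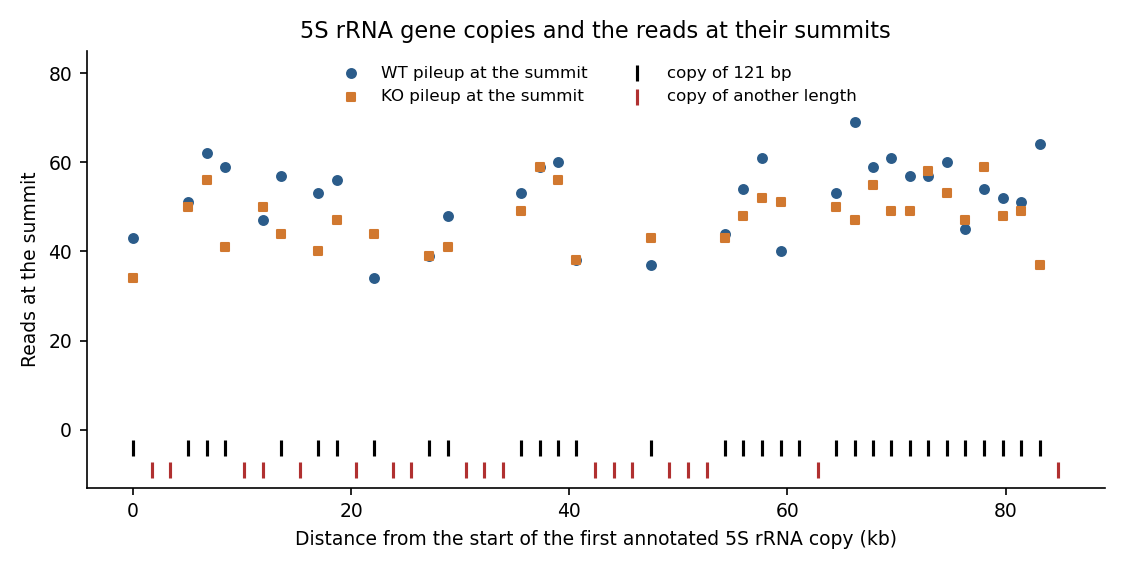
Reads at the summit (y axis) in WT (blue circles) and KO (orange squares) for each 5S rRNA gene copy with a summit, by distance in kb from the first annotated copy. Ticks under 0 mark all 51 copies, black for those of 121 bp and red for other lengths. Points stand above 31 black ticks and 1 red tick, and both lists lie between 34 and 69 reads.

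Of the 15 bins of high local background, the 3 of the 5S array included, 6 had as many or more KO than WT summits and 9 had fewer, 4 of those with 0 or 1. A bin near the start of chromosome 9 (chr9:3000001-3050000) had 20 WT and 20 KO summits with 161 to 314 WT and 138 to 307 KO reads, at a median fold of 2.0 in WT. Its median local background was 80.7 times that of the genome. A bin without genes on chromosome 2, chosen after its values were seen, had 4 of each, with 177 to 382 WT and 153 to 385 KO reads. The interferon zeta cluster on chromosome 4, a tandem family of interferon genes, had 12 members and 6 KO regions, and its 6 shared members had a median KO to WT ratio of 0.608. In the Sfi1 bins of chromosome 11, which carry repeated segments of a centrosome gene, 5 of 13 members were shared.

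Genes of small structural RNAs were overlapped by 43 members (4.72%) and by 58 of the other 13881 WT regions (0.418%). Of the 43, 40 were shared, 32 of them in the 5S array, against 28 of the 58 (48.3%). The U1 and U3 genes Rnu1a1, Rnu3b1 and Rnu3b3, in a bin on chromosome 11 chosen after its values were seen, had all 4 members shared, with 14 to 28 WT and 13 to 18 KO reads. In the Snx6 bin of chromosome 12 the 6 members each lay on a different predicted small nuclear RNA gene, and 4 were shared. The gene table classes the U3 genes as small nuclear RNA, and no member overlapped a gene it classes as tRNA or small nucleolar RNA. Of the other 13881 WT regions only 26 (0.187%) and 4 (0.0288%) overlapped such genes, so their absence among members says little.

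Reads at the summit, worked out from the deposited fold and p, were compared for members paired one to one with a KO region. Without high local background, 320 such members had 8330 WT and 5528 KO reads, 39.9% of them in KO (39.1 to 40.7, exact binomial). The other WT regions gave 39.5% (39.3 to 39.7). Depth alone would give 42.9%. Regions without a KO region, 481 members without high local background among them, are left out, so the shares hold only for regions called in KO. The 68 members over high local background had 47.6% of reads in KO (46.8 to 48.4), and the 52 other WT regions over such a background had 47.3% (46.4 to 48.1). Reads moved with this too, since the 34 other WT regions with 150 or more reads summed over both lists and no high local background had 48.6%. The members' median KO to WT ratio was 0.920, against 0.650 in those without, and the 32 of the 5S array also had 47.6%. Reads without molecular identifiers are not independent molecules, and the pooled lists carry no spread between mice, so these intervals do not compare the groups.

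**Figure D5:**
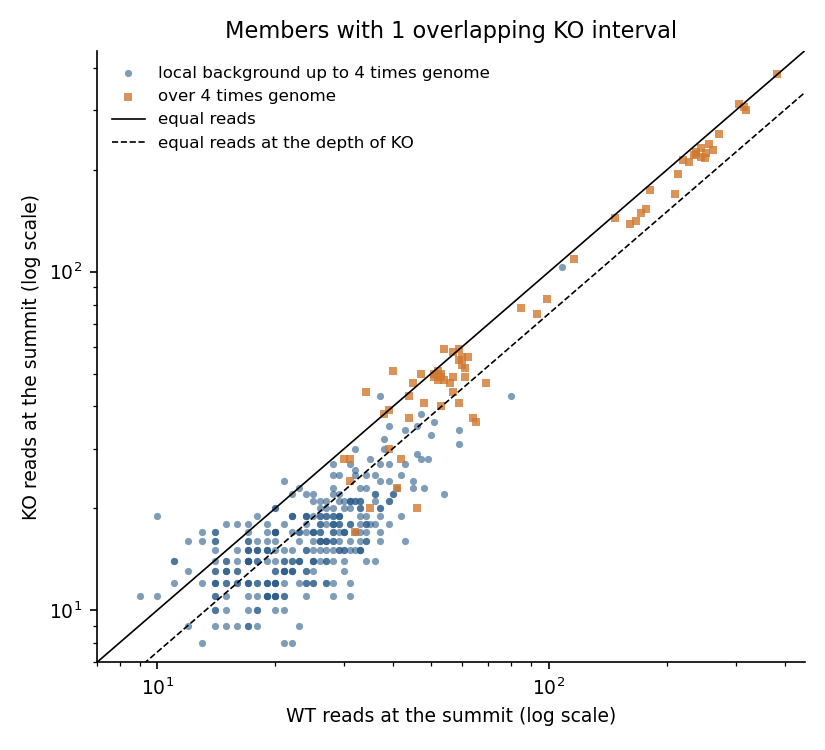
WT reads (x axis) and KO reads (y axis) at the summit, both on log scales, for members with 1 overlapping KO region. The solid line marks equal reads and the dashed line equal reads at the KO depth of 0.752 times WT. Orange squares, members over more than 4 times the genome background, lie mostly along or near the solid line, and blue points lie mostly under the dashed line.

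Start windows at members had a median GC content of 61.3%, against 62.7% at other WT regions and 53.0% in the windows of all genes. Of the 301 windows at members, 67.1% held the GC box GGGCGG, against 71.4% at other WT regions and 36.0% of all 31365 windows on chromosomes 1 to 19 with a sequence. CCGGAAG was found in 21.3%, 22.9% and 9.0%. CCAAT was found in 45.2%, 44.4% and 37.3%. TATAAA was found in 11.0% of member windows (7.67 to 15.1), 4.73% of the windows at other WT regions and 13.6% of all. In the histone bins 8 of 12 windows held it, and outside the histone and high background bins 25 of 281 (8.90%). CAGCTG was found in 14.3% of member windows, 14% of those at other WT regions and 16.3% of all, and TGTGGT in 14.3%, 11.5% and 16.7%. For GGGCGG and CCGGAAG the members' share lay nearer that at other WT regions. For TATAAA it lay nearer that of all windows when every dense bin was counted. Outside the histone and high background bins, the TATAAA share of 8.90% lay nearer the 4.73% at other WT regions. A match is a run of letters and not a bound site.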

How the data were processed

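ATAC-seq regions of 2 groups, WT and KO, were analysed from 1 deposited list per group, each made by the authors from both replicates, per the labels. Regions were called with MACS2 2.1.4 on build mm10, and Bowtie2, Trim Galore, FastQC, Picard, GATK and deepTools 3.4.1 were also used, per the submitters' processing notes. Settings, and whether duplicates were removed or cut positions shifted, are not given in the sources used here. Deposited values of a region were the authors' score, the fold enrichment at its summit, −log10 values of p and q, and the offset of the summit. The fold enrichment is the authors' and served only for description, ranking and matching. The lowest deposited −log10 q was 1.32 in WT and 1.31 in KO.

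Reads at the summit and local background were solved from the deposited fold and −log10 p as MACS2 defines them. All lines were solved with a misfit under 0.001. The most frequent background, 1.37 reads for WT and 1.03 for KO, was taken as that of the genome, and their ratio was taken as the relative depth. Library totals were not used here. Summits were binned in 50 kb steps, regions sharing 1 bp or more counted as overlapping, and gene ends, 1000 bp on either side, came from a RefSeq table of GRCm38.p6, the assembly behind mm10. Shares have exact Clopper-Pearson 95% intervals, and differences of shares Newcombe intervals. Weighting by height used 10 groups of equal size. The solver was tested on simulated summits, of which 1000 of 1000 were recovered. Simulated backgrounds stayed well under those of the bins with the highest local background, so the solver was not tested there. The overlap was tested on the WT list against a shifted copy of a random part of it, with 0 overlaps missed and 0 false.

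The members, gene lists and tests were chosen with earlier results of these data known. The rule for naming bins took the 12 with the most WT summits and the 6 without KO summits of highest summed WT fold. It also took the 5 with most KO summits among those with as many or more KO than WT summits. Added to these were the 5 runs with most WT summits and bins overlapping a listed gene or antigen receptor segment. Of the 12, the bins at chr2:181900001-181950000 (6 WT and 4 KO summits) and chr17:13550001-13600000 (6 WT and 5 KO summits) are not described above. Bins outside the rule are said to have been chosen after their values were seen. The local background limit, the weighting by reads, the shortened WT list and the merging of neighbours were also chosen after seeing the data. Sequences came from RefSeq start windows, which held none for chromosome 18. Scripts ran under Python 3.11.15 with scipy 1.17.1, pandas 2.3.3, numpy 2.4.6 and matplotlib 3.10.9.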

Additional observations from a re-analysis of the deposited data

How the results depend on the processing

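No paired analysis was possible because each deposited list pools both replicates, and for the same reason no replicate could be left out. The number of dense bins, 204 as reported, was 729 with 100 kb bins, 40 with 25 kb bins, 867 with 3 or more WT summits, 45 with 5 or more, 17 at a −log10 q of at least 10, 23 with the WT list as long as the KO list and 130 with neighbours under 1000 bp merged. The shared percentage of members was 57.2 with 25 kb bins, 55.6 with 5 or more summits, 65.4 at a −log10 q of at least 10, 38.4 with 50% reciprocal overlap and 40.9 without high local background.

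The gap between members and other WT regions, −1.73 points as reported, changed sign under 6 settings: 11.3 with 25 kb bins, 9.74 with 5 or more summits, 28.1 at a −log10 q of at least 10, 8.52 within 10 groups of WT fold, 0.623 within groups of −log10 q, and 3.12 within groups of fold without high local background. It was −5.33 with 3 or more summits, −7.19 within groups of reads and −5.09 without high local background, and −4.65 (−6.55 to −2.74) with 100 kb bins. Under the other 7 settings it lay between −2.46 and −0.259. A minimum −log10 q was applied to both lists. The setting with 5 or more summits kept regions over high local background. Without such regions, 45.5% were shared in bins of 5 WT summits and 51.4% in bins of 6, against 46.0% of the other WT regions. The KO to WT summit ratio was 0.608, 0.567 and 0.682 with 25 kb bins, 5 or more summits and a −log10 q of at least 10. The share of dense bins with 4 or more KO summits was 27.5% with 25 kb bins, 35.3% at a −log10 q of at least 10 and 43.5% with the shortened WT list. Members at gene ends made up 55.8% with a 2000 bp window. The cause of these changes was not tested.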

Other observations

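Outside chromosomes 1 to 19 the same threshold was met by 7 bins. On chromosome X, a bin with Gpkow, Wdr45, Praf2 and Ccdc120 had 4 WT and 0 KO summits, and a bin with Rbm10, an RNA-binding protein, Uba1, the main ubiquitin-activating enzyme, and Cdk16 had 4 WT and 2 KO summits. Their median local backgrounds were 1.00 and 1.11 times that of the genome. On chromosome Y, a pair of bins had 5 WT summits each, with 4 and 3 KO summits, at local backgrounds of 11.4 and 12.8 times that of the genome. Among unplaced contigs, the bins held 4, 15 and 9 WT summits and 3, 11 and 7 KO summits. The latter 2 had a median WT fold of 1.87 at local backgrounds of 72.2 and 68.7 times that of the genome.

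A bin on chromosome 10 at the gene 9230019H11Rik had more KO than WT summits, 7 against 4, with 85 to 104 WT reads over regions of a median 764 bp and 50 to 83 KO reads over a median of 328 bp. The Rn18s-rs5 bin of chromosome 17, chosen after its values were seen, had 4 WT members and a single KO region of 2092 bp, which overlapped 1 of them.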
